A study of Mus musculus with 6 samples.

Results

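Transcripts of 10 genes that make arginine from citrulline or that make, limit and break down polyamines were followed in naive CD8 T cells of the mouse. The genes are Ass1, Asl, Odc1, Azin1, Oaz1, Oaz2, Amd1, Srm, Sms and Sat1, and they were found by symbol. All 10 were present among the 11162 genes of the table and among the 9351 tested. The set was chosen by pathway around Ass1, with the RPKM of both groups already known, so the differences of these genes are given as a description, with no p-value.

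The cells came from the spleen of mice with the transgene Tg(Nr4a1-EGFP)GY139Gsat, also called Nur77-GFP, in which a bacterial artificial chromosome carries green fluorescent protein under the control of Nr4a1, a gene switched on by T-cell receptor signalling. Both groups were sorted as CD8+, CD44lo, CD62Lhi and Qa2hi cells labelled OT-I, a transgenic T-cell receptor, and differed only in the gate on reporter brightness, Nur77-GFPhi or Nur77-GFPlo. The data comprised 3 libraries of GFP-hi and 3 of GFP-lo cells, made from polyA RNA. The labels used here give no age, no number of mice and no statement on pooling, so the spread between libraries may be technical.

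Arginine is both a building block of proteins and the source of ornithine, nitric oxide and creatine. Cells can make it from citrulline in a pair of steps: Ass1 (argininosuccinate synthase) joins citrulline to aspartate, and Asl (argininosuccinate lyase) splits the product into arginine and fumarate. Polyamines are small positively charged molecules that bind nucleic acids and are needed for growth. Odc1 makes putrescine from ornithine, Amd1 supplies the aminopropyl donor, Srm makes spermidine and Sms makes spermine, while Sat1 acetylates polyamines for breakdown or export. Antizymes, encoded by Oaz1 and Oaz2, bind Odc1 protein and send it to the proteasome, and Azin1, a relative of Odc1 without its enzyme activity, binds antizyme in its place. T cells that are activated raise polyamine synthesis, with Myc as a known driver.

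Libraries were comparable in depth, with 26172000 to 35940000 reads recovered from the steps in the RPKM values, so that 1 RPKM stood for 26.17 to 35.94 reads per kilobase. RPKM counts reads per kilobase of transcript, scaled to the size of the library. The CD8 T cell markers were abundant, with Cd8b1 at 785 to 839 RPKM and Cd3e at 192 to 209 RPKM. Neither the reporter transcript GFP (214 to 262 RPKM in GFP-hi against 191 to 216 RPKM) nor Nr4a1 (37.0 to 90.9 against 33.8 to 84.9 RPKM) separated the groups, so these transcripts gave no check of the sort. GFP-hi replicate 2 and GFP-lo replicate 2 stood apart by heat-shock genes: Hspa1a was at 1100 and 1234 RPKM there and between 152 and 235 RPKM in the other 4 libraries.

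Sequences are shown for the 1 gene of the list whose groups were far apart, Ass1, and for the antizymes, whose protein output depends on a site that RPKM does not read. Ass1 lies on the plus strand at chr2:31470270-31520670 (GRCm38, the assembly that mm10 names). The 250 bases before its RefSeq start site, chr2:31470020-31470269, are printed in the direction of transcription, with an E-box (CACGTG) and a GC box (GGGCGG) in capitals:
Ass1 upstream: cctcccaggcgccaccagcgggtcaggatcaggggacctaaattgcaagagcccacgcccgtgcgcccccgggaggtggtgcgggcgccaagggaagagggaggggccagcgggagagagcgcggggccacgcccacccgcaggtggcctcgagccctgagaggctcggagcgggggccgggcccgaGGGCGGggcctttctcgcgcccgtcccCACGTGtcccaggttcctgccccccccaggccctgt
The E-box begins 36 bases and the GC box 63 bases before the start site. The E-box reads the same on both strands and is the letter pattern known to be bound by Myc with Max and by related factors. The GC box, searched on both strands as GGGCGG and CCGCCC, is known to be bound by Sp1. RefSeq windows from 250 bases before to 50 bases after the start were matched for 7 of the 10 genes. Among 32851 such windows of the mouse table, 7.15% held the E-box and 35.7% the GC box. Besides Ass1, the E-box was found in 1 of the 2 windows of Sms, and the GC box in windows of Amd1, Oaz2, Odc1, Sat1 and Sms. These matches describe letters only and were not tied to any measurement of binding.

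Antizyme is made only when ribosomes slip by 1 base at a stop codon inside the reading frame, which polyamines promote. The 30 bases around that site in the GENCODE M21 transcripts of both genes are as follows, with the slip site, the codon TCC followed by the stop codon TGA and a T, in capitals:
Oaz1: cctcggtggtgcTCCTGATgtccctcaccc
Oaz2: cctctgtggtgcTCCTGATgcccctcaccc
Of the 30 bases compared, 28 were identical. The RPKM of these genes counts transcripts and holds no information on how often the slip occurs.

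Ass1 (Entrez 11898) was lower in GFP-hi cells. Its RPKM was 7.52, 7.82 and 7.91 in the GFP-hi libraries and 14.03, 13.4 and 14.9 in the GFP-lo libraries. The groups were well apart, and the lowest GFP-lo library lay far above the highest GFP-hi library. Means were 7.75 ± 0.200 and 14.1 ± 0.737 RPKM (SD, n = 3 each), so that the GFP-lo mean was 1.82 times the GFP-hi mean. The difference on the log2(RPKM + 1) scale, GFP-hi over GFP-lo, came to -0.79 (standard error 0.058, 95% interval -0.92 to -0.65). These values rested on 214 to 504 reads per kilobase. In such bulk libraries, fewer cells with the transcript and less transcript per cell cannot be told apart.

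The table-wide fit (limma, Benjamini-Hochberg adjusted p under 0.05 over 9351 genes) called 1 of the 10 genes, Ass1, and no other. It called 369 genes in all, 3.95% of those tested, of which 230 (2.46%) were higher and 139 (1.49%) lower in GFP-hi. Nothing is read from the count of 1, because the list was made with this comparison known. Of all genes tested, 18 (0.192%), Ass1 included, had a log2 fold change as low as that of Ass1 or lower. The call of Ass1 was made in each of the 17 alternative fits, among them the 6 without 1 library and the 1 without both libraries high in heat-shock genes (log2 fold change -0.83).

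**Figure D1:**
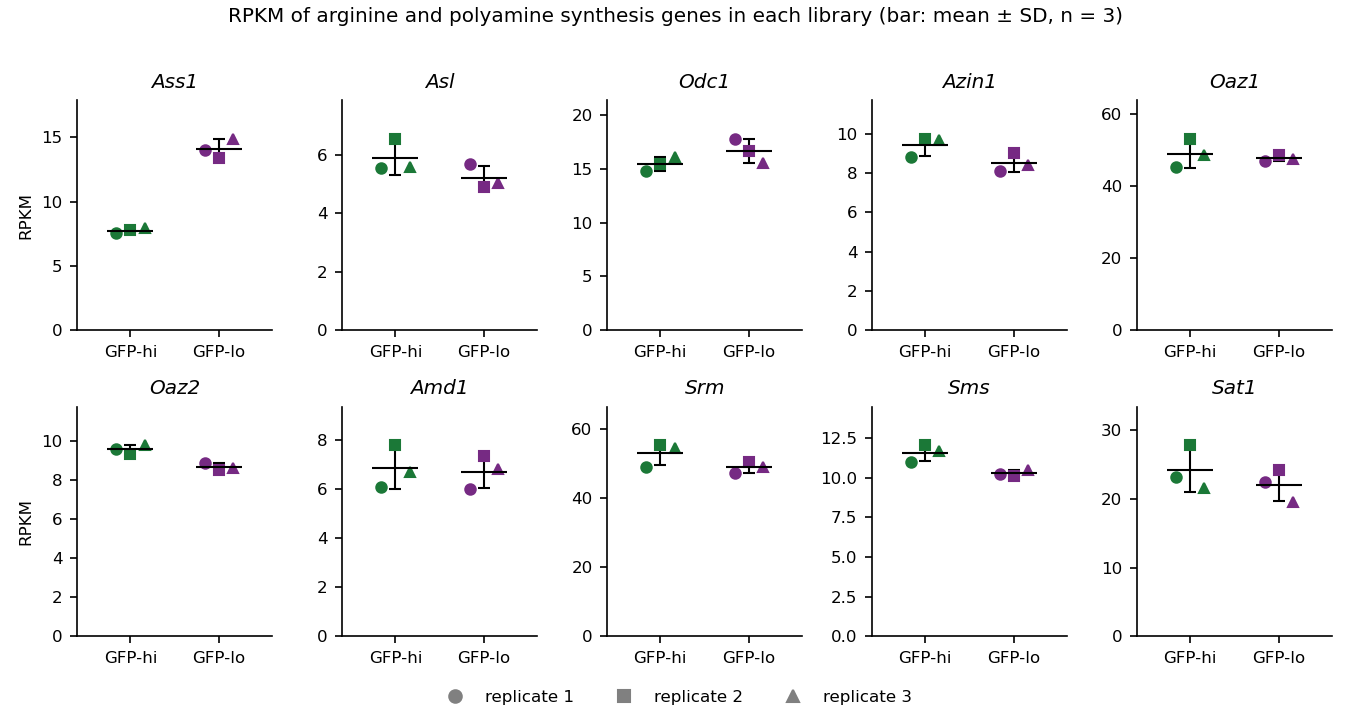
RPKM of the 10 genes (vertical axes, linear and starting at 0) in the 3 GFP-hi (green) and 3 GFP-lo (purple) libraries; black lines give the mean ± SD and the shape of a point gives the replicate number. Ass1 lies at 7.52 to 7.91 RPKM in the GFP-hi against 13.4 to 14.9 RPKM in the GFP-lo libraries, whereas the groups of the other genes lie close to each other.

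Asl (Entrez 109900, chr5:130011258-130024381), which acts on the product of Ass1, did not follow it. It had 5.54, 6.55 and 5.57 RPKM in the GFP-hi against 5.67, 4.91 and 5.04 RPKM in the GFP-lo libraries. The groups overlapped, with GFP-lo replicate 1 above GFP-hi replicates 1 and 3. The log2 fold change was 0.15 with a 95% interval from -0.04 to 0.34, on the other side of 0 from that of Ass1. The ratio of Ass1 to Asl RPKM was therefore 1.36, 1.19 and 1.42 in GFP-hi and 2.47, 2.74 and 2.96 in GFP-lo libraries. In every library the synthase was thus the more abundant transcript of the pair, by a margin that was smaller in GFP-hi.

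Odc1 (Entrez 18263, chr12:17544808-17551502), which encodes the first enzyme of polyamine synthesis, had 14.8, 15.4 and 16.1 RPKM in the GFP-hi against 17.8, 16.7 and 15.5 RPKM in the GFP-lo libraries. GFP-lo replicate 3 lay between GFP-hi replicates 2 and 3, so the groups overlapped. Besides Ass1 it was the only gene of the list with a negative log2 fold change, -0.10 (95% interval -0.25 to 0.05). The interval leaves room for a small decrease and leaves out one as large as that of Ass1.

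Azin1 (Entrez 54375, chr15:38487430-38519294), whose product shields Odc1 from antizyme, had 8.81, 9.75 and 9.67 RPKM in the GFP-hi against 8.10, 9.02 and 8.41 RPKM in the GFP-lo libraries. The groups overlapped through GFP-lo replicate 2, and the log2 fold change was 0.13 (95% interval -0.02 to 0.28). Azin1 and Odc1 thus had estimates of opposite sign. The ratio of Azin1 to Odc1 RPKM was 0.594, 0.633 and 0.600 in GFP-hi and 0.455, 0.540 and 0.542 in GFP-lo libraries, a pair of ranges that do not overlap. The ratio was chosen after its parts had been seen and was not tested.

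Antizyme transcripts were unequal in level. Oaz1 (Entrez 18245, chr10:80826656-80829290) had 45.3, 53.2 and 48.6 RPKM in the GFP-hi against 47.1, 48.6 and 47.6 RPKM in the GFP-lo libraries. All GFP-lo values lay within the GFP-hi range, and the log2 fold change was 0.03 (95% interval -0.12 to 0.19). Oaz2 (Entrez 18247, chr9:65676548-65690300) had 9.61, 9.34 and 9.80 RPKM in the GFP-hi against 8.88, 8.51 and 8.64 RPKM in the GFP-lo libraries. Each GFP-hi library lay above each GFP-lo library, but the distance was small, with a log2 fold change of 0.13 (95% interval 0.01 to 0.25). Oaz2 had the smallest spread within groups of the 10 genes, an SD of 0.030 on the log2 scale, below that of all but 3.07% of the genes tested. The sum of Oaz1 and Oaz2, divided by the sum of their binding partners Odc1 and Azin1, was 2.32, 2.49 and 2.26 in GFP-hi and 2.16, 2.22 and 2.35 in GFP-lo libraries. These ratios overlapped, with means of 2.36 ± 0.116 and 2.24 ± 0.0960 (SD, n = 3 each).

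Amd1 (Entrez 11702, chr10:40287458-40302188), the decarboxylase that provides the aminopropyl donor, had 6.09, 7.82 and 6.73 RPKM in the GFP-hi against 6.01, 7.35 and 6.83 RPKM in the GFP-lo libraries. The groups covered nearly the same range, and the log2 fold change was 0.03 (95% interval -0.20 to 0.25). RefSeq names a further gene, Amd2, and several pseudogenes after Amd, and also pseudogenes of Oaz1, Oaz2 and Sms. Reads shared with such copies could be assigned either way, so the levels of Amd1, Oaz1, Oaz2 and Sms are uncertain to that extent.

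Srm (Entrez 20810, chr4:148591513-148594619), spermidine synthase, had 49.2, 55.5 and 54.7 RPKM in the GFP-hi against 47.4, 50.6 and 49.0 RPKM in the GFP-lo libraries. GFP-hi replicate 1 lay below GFP-lo replicate 2, so the groups overlapped, and the log2 fold change was 0.11 (95% interval -0.03 to 0.26). Sms (Entrez 20603, chrX:157443851-157492287), spermine synthase, had 10.99, 12.1 and 11.7 RPKM in the GFP-hi against 10.3, 10.1 and 10.5 RPKM in the GFP-lo libraries. Every GFP-hi library was above every GFP-lo library, and the log2 fold change of 0.16 (95% interval 0.03 to 0.29) was the most positive of the list. Both aminopropyl transferases thus had small positive estimates, and the ratio of Srm to Sms RPKM overlapped between the groups at 4.48 to 4.67 in GFP-hi and 4.62 to 5.003 in GFP-lo.

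Sat1 (Entrez 20229, chrX:155213126-155216449), the acetyltransferase of polyamine breakdown, had 23.2, 27.8 and 21.6 RPKM in the GFP-hi against 22.5, 24.2 and 19.6 RPKM in the GFP-lo libraries. The groups overlapped, with GFP-hi replicates 1 and 3 inside the GFP-lo range. Its log2 fold change was 0.12 (95% interval -0.12 to 0.37), and its spread within groups, an SD of 0.165 on the log2 scale, was larger than that of 87.9% of the genes tested. The estimate fell to 0.02 when GFP-hi replicate 2 was left out and to 0.04 when replicate 3 of GFP-lo was. In the 4 libraries low in Hspa1a it was 0.09.

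**Figure D2:**
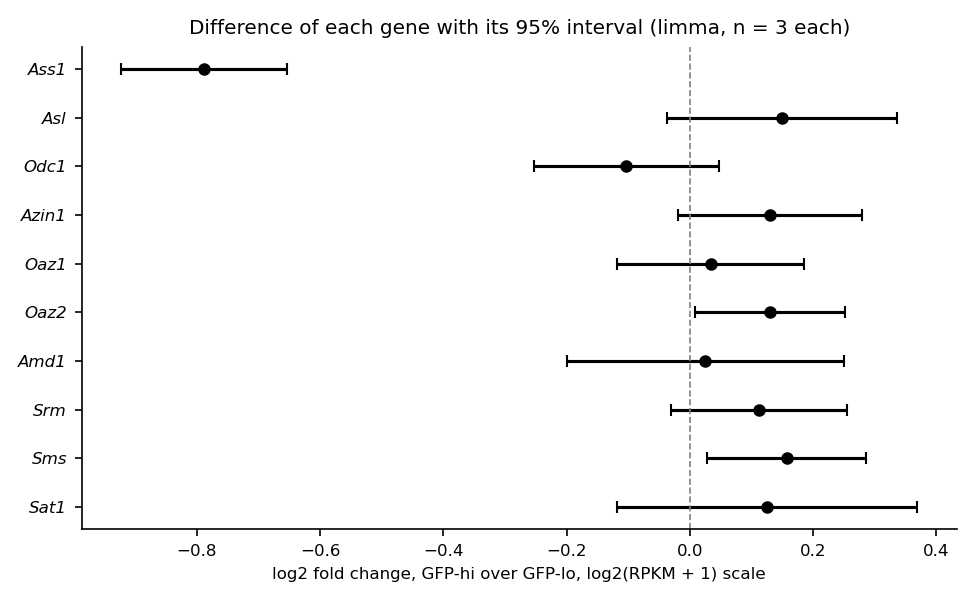
Log2 fold change of each gene, GFP-hi over GFP-lo, on the log2(RPKM + 1) scale (horizontal axis), with 95% intervals from limma over 3 libraries in each group. Ass1 lies at -0.79 with an interval from -0.92 to -0.65, and the other estimates lie between -0.10 and 0.16.

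Across the list, 8 of 10 estimates were above 0, as were 55.5% of all genes tested, and the median log2 fold change was 0.12 against 0.02 for all genes tested. Groups did not overlap for Sms and Oaz2, both higher in GFP-hi, and for Ass1. Of all genes tested, 26.9% had groups that did not overlap, 17.1% with GFP-hi higher and 9.84% with GFP-hi lower.

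Levels per length followed nearly the same order in both populations. Srm and Oaz1 were the most abundant, at 53.1 and 49.0 RPKM in the GFP-hi against 49.0 and 47.8 RPKM in the GFP-lo libraries, and the libraries of the pair overlapped. Sat1 (24.2 and 22.1 RPKM) and Odc1 (15.4 and 16.7 RPKM) came next, each apart from its neighbours. Ass1 moved in the order: it was in place 5 in GFP-lo, between Odc1 and Sms, and in place 8 in GFP-hi, below Sms, Oaz2 and Azin1. In GFP-hi the ranges of Ass1 (7.52 to 7.91 RPKM) and Amd1 (6.09 to 7.82 RPKM) overlapped. Oaz2 and Azin1 overlapped in both groups, and Asl was the lowest of the 10 genes in both.

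Some of the genes were highest in the libraries with high heat-shock genes, and the part of heat shock in this was not tested. Of 17 heat-shock and dissociation genes tested, 13 had a negative log2 fold change and 0 were called (limma, 1 at an unadjusted p under 0.05), and their summed level was 3259 to 7349 RPKM in the GFP-hi against 4162 to 8218 RPKM in the GFP-lo libraries. GFP-hi replicate 2 was the highest of the 6 libraries for 7 of the 10 genes, as it was for 33.3% of all genes tested. Azin1, Oaz1, Amd1, Srm and Sat1 peaked in replicate 2 of both groups, the libraries with high Hspa1a, a pattern seen in 19.9% of all genes tested. Without these 2 libraries the log2 fold change was 0.05 for Asl, where it was 0.15 over all libraries. Of the 5 genes that peaked there, Sat1 then had 0.09 in place of 0.12, Oaz1 -0.01 in place of 0.03 and Amd1 -0.0013 in place of 0.03, whereas Azin1 had 0.14 in place of 0.13 and Srm 0.10 in place of 0.11. Ass1 had its highest value in GFP-lo replicate 3 and its lowest in GFP-hi replicate 1, neither of them high in Hspa1a.

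**Figure D3:**
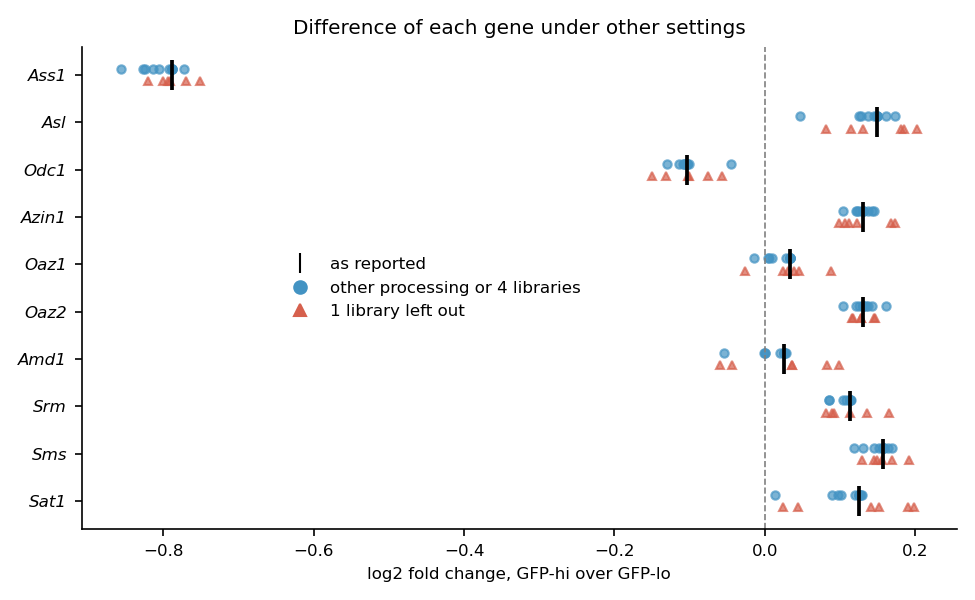
Log2 fold change of each gene, GFP-hi over GFP-lo (horizontal axis), as reported (black bar), in fits with other processing or on the 4 libraries low in Hspa1a (blue circles), and with 1 library left out (red triangles). Ass1 stays between -0.86 and -0.75, whereas Amd1 and Oaz1 cross 0.

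Markers of other cell types and of the naive state were also compared. Of 14 genes of dividing cells, 11 were tested and all 11 had a positive log2 fold change. Of these 9 were called higher in GFP-hi (limma, adjusted p under 0.05), as were 2.46% of all genes tested. Mki67, Top2a, Pclaf, Ccnb2, Birc5, Bub1b and Tyms averaged under 1 RPKM in GFP-lo. They passed the filter only through GFP-hi, so their positive sign was fixed by it. Stmn1, Rrm2 and Mcm5 averaged above 1 RPKM in both groups and were called, while Pcna, also above 1 RPKM in both, was not. The summed level of the 14 was 92.4 to 101 RPKM in the GFP-hi against 54.8 to 58.3 RPKM in the GFP-lo libraries. The part of dividing cells in the small positive estimates of the polyamine genes was not tested. Myeloid cells are a known source of arginine-metabolising enzymes. Of their markers 2 were present in the table, Cst3 (18.4 to 24.5 RPKM) and Itgam (at most 0.431 RPKM), summing to 18.8 to 24.6 RPKM in the GFP-hi against 18.8 to 20.97 RPKM in the GFP-lo libraries. B cell markers summed to 12.8 to 14.4 RPKM in the GFP-hi against 11.1 to 11.6 RPKM in the GFP-lo libraries, nearly all of it Cd79b, with Ms4a1 and Cd22 at most 0.597 and 0.394 RPKM. Of the erythroid markers 2 were present and summed to 4.36 to 5.74 RPKM in the GFP-hi against 2.38 to 3.54 RPKM in the GFP-lo libraries. Car2 was higher in GFP-hi (3.80 to 4.53 against 1.99 to 2.34 RPKM; limma, adjusted p = 0.0036). The defining marker Hba-a1, a haemoglobin chain, was below the level tested and did not separate the groups (0.047 to 1.94 against 0.393 to 1.48 RPKM). Of the markers of CD4 T cells only Cd40lg was present, so Cd4, Zbtb7b and Foxp3 gave no check. Cd40lg was lower in GFP-hi (14.2 to 22.7 against 35.4 to 46.8 RPKM; limma, adjusted p = 0.011). Of the 7 markers of naive T cells, all abundant, 6 had a negative log2 fold change and Lef1 a positive one. Of them Il7r, the receptor chain for interleukin-7, was called: it was lower in GFP-hi, at 57.7 to 68.1 against 105 to 119 RPKM (log2 fold change -0.80; limma, adjusted p = 0.0022), a difference near that of Ass1 in size. The naive markers summed to 1772 to 2085 RPKM in the GFP-hi against 1959 to 2277 RPKM in the GFP-lo libraries. The part of these markers in the results was not tested. No NK cell marker was analysed here.

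Genes around the pathway were taken from 7 lists. Of their 54 genes tested, 0 were called higher and 0 lower in GFP-hi (limma, adjusted p under 0.05), and 11 had an unadjusted p under 0.05, a limit passed by 20.2% of all genes tested. With array quality weights in limma 9 were called (Oat, Castor1, Castor2, Glul, Psme3, Paox, Eif5a, Eif5a2 and Mxd4). Those weights called 1282 of all 9351 genes tested, against 369 as reported, so nothing is read from the count of 9. In the lists, 1 gene each was called without a filter, without the trend, with robust eBayes and without GFP-hi replicate 3. The median log2 fold change over the 54 genes was 0.04, against 0.02 for all genes tested.

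Arginine and proline metabolism contributed 6 genes, 4 with a positive and 2 with a negative log2 fold change (median 0.07). Oat, which links ornithine to proline, had 21.9, 26.0 and 23.0 RPKM in the GFP-hi against 28.4, 26.5 and 26.0 RPKM in the GFP-lo libraries, narrowly without overlap (log2 fold change -0.19, limma adjusted p = 0.21). Pycrl, a reductase of proline synthesis, had an estimate of 0.24 on the log2 scale (limma, adjusted p = 0.27). Slc25a15, the mitochondrial ornithine carrier, differed by 0.14 and Aldh18a1, at the entry to proline and ornithine synthesis, by 0.11 (limma, adjusted p = 0.35 and 0.37). The arginases and nitric oxide synthases were not analysed here.

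Of arginine transport and sensing 6 genes were tested, all with positive estimates (median 0.07) and none called. The uptake carriers Slc7a1 and Slc7a6 differed by 0.03 and 0.01 on the log2 scale, and Slc3a2, which pairs with light chains that carry amino acids, by 0.07 (limma, adjusted p = 0.65). Castor1, a cytosolic arginine sensor upstream of mTORC1, had 3.68, 3.74 and 4.18 RPKM in the GFP-hi against 2.81, 3.06 and 3.40 RPKM in the GFP-lo libraries. Its groups did not overlap (log2 fold change 0.25, limma adjusted p = 0.12). Castor2, its relative, differed by 0.16 and the lysosomal arginine sensor Slc38a9 by 0.08 (limma, adjusted p = 0.22 and 0.58). Over the alternatives, adjusted p in limma ran from 0.026 to 0.33 for Castor1 and from 0.039 to 0.48 for Castor2.

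Aspartate is a substrate of Ass1 beside citrulline, and 13 genes of aspartate, asparagine and glutamine supply were tested (9 positive, median 0.07, none called). Glul, glutamine synthetase, had 6.30, 6.17 and 5.86 RPKM in the GFP-hi against 7.32, 7.47 and 6.86 RPKM in the GFP-lo libraries, without overlap (log2 fold change -0.21, limma adjusted p = 0.10). Glud1, glutamate dehydrogenase, differed the other way, by 0.16 (limma, adjusted p = 0.19). Slc25a13, a mitochondrial aspartate carrier, had 2.09, 1.62 and 2.09 against 1.28, 1.11 and 1.82 RPKM, with overlapping groups (log2 fold change 0.30, limma adjusted p = 0.23). Adsl, a lyase that releases fumarate in purine synthesis, differed by 0.11 (limma, adjusted p = 0.25).

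Polyamine breakdown, transport and other regulators gave 5 tested genes, 4 of them with positive estimates (median 0.17). Psme3, a proteasome activator, had 75.4, 73.3 and 75.7 RPKM in the GFP-hi against 63.3, 65.4 and 66.3 RPKM in the GFP-lo libraries. The libraries of each group lay close together and the groups well apart, but the log2 fold change of 0.20 did not pass (limma, adjusted p = 0.067). Paox, which oxidises acetylated polyamines made by Sat1, had 3.13, 3.45 and 3.12 RPKM against 2.47, 2.26 and 2.70 RPKM, again without overlap (log2 fold change 0.29, limma adjusted p = 0.078). Smox, spermine oxidase, differed by 0.17 and Atp13a2, a lysosomal polyamine exporter, by 0.03 (limma, adjusted p = 0.31 and 0.91).

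Spermidine is used to make hypusine, a modified lysine of the translation factor eIF5A, and the 4 genes of this step were tested. The paralogs had estimates of opposite sign, but nothing is read from this, because the sign of Eif5a2 was fixed by the filter. Eif5a was at 126, 134 and 128 RPKM in the GFP-hi against 113, 114 and 114 RPKM in the GFP-lo libraries (log2 fold change 0.19, limma adjusted p = 0.080). Eif5a2 was far lower in level, at 0.797, 0.855 and 0.851 RPKM against 1.34, 1.16 and 1.23 RPKM (log2 fold change -0.29, limma adjusted p = 0.073). Its GFP-hi mean was 0.834 RPKM, under the limit of 1 RPKM, so it passed the filter only through GFP-lo. For both paralogs the groups did not overlap and the threshold was missed. The hypusine enzymes Dhps and Dohh differed by 0.06 and -0.06 (limma, adjusted p = 0.78 and 0.79). Over the alternatives, adjusted p in limma ran from 0.017 to 0.23 for Eif5a and from 0.023 to 0.21 for Eif5a2, which also passed without the mean-variance trend.

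Methionine cycle and salvage genes, which make the precursor of the aminopropyl donor and recover the sulphur of the donor, had small estimates in both directions. Of 12 tested, 5 had positive and 7 negative estimates (median -0.02), with 0 at an unadjusted p under 0.05 in limma. Enoph1, Mat2a, Mri1 and Adi1 had log2 fold changes of 0.12, -0.13, -0.06 and -0.07 (limma, adjusted p from 0.30 to 0.62).

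Myc and its partners gave 8 tested genes (median 0.02). Myc itself had 42.8, 46.7 and 38.3 RPKM in the GFP-hi against 42.2, 42.3 and 38.0 RPKM in the GFP-lo libraries, with overlapping groups and a difference of 0.06 on the log2 scale (SE 0.081; limma, adjusted p = 0.76). Mxd4, a partner of Max that represses, had 8.17, 10.3 and 7.003 RPKM in the GFP-hi against 6.05, 5.08 and 4.50 RPKM in the GFP-lo libraries. Each GFP-hi library was above each GFP-lo library, and the log2 fold change of 0.60 lay just outside the threshold (limma, adjusted p = 0.052). It passed with robust eBayes, with array quality weights and without GFP-hi replicate 3 (limma, adjusted p = 0.046, 0.015 and 0.037), and over the alternatives adjusted p ran from 0.015 to 0.20. Mxi1, Mxd1 and Mlx differed by -0.11, 0.32 and -0.08 (limma, adjusted p = 0.38, 0.50 and 0.67). The value of Mxd1 changed when 1 library was left out. Leaving out GFP-hi replicate 2 gave 0.08, while leaving out replicate 3 or 2 of GFP-lo gave 0.17 and 0.54. In the 4 libraries low in Hspa1a, the value of Mxd1 was 0.30, close to the 0.32 over all libraries. With array quality weights it was 0.03.

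**Figure D4:**
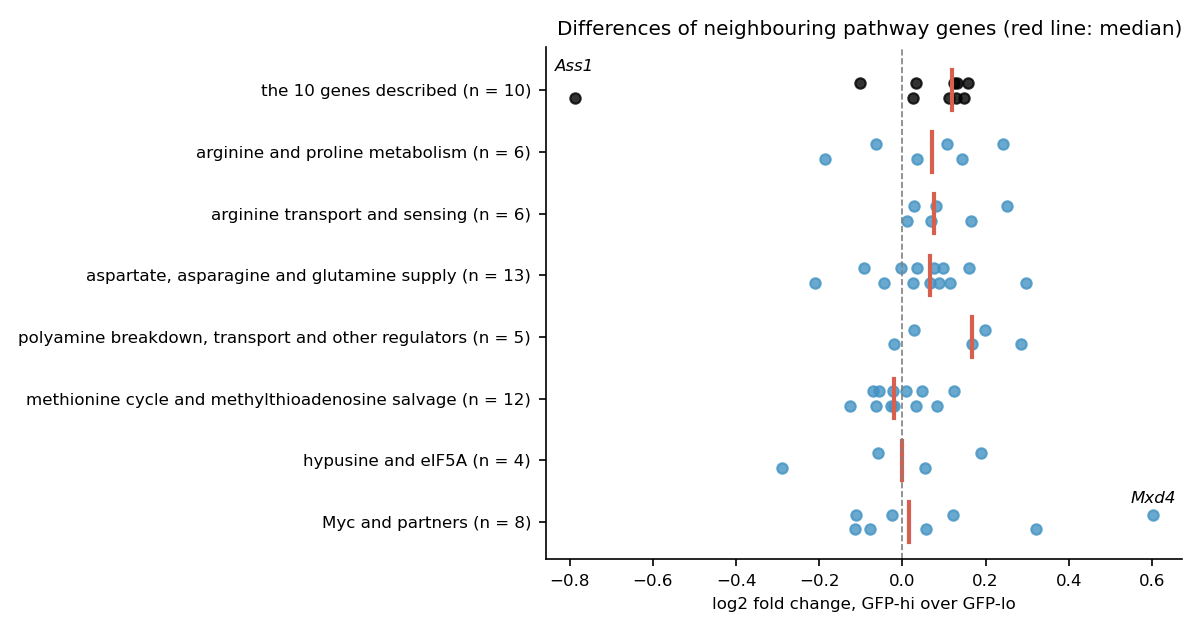
Log2 fold change, GFP-hi over GFP-lo (horizontal axis), of the 10 genes described (black) and of the tested genes of 7 neighbouring lists (blue; number of genes in brackets), with the median of each list as a red line. Ass1 at -0.79 and Mxd4 at 0.60 lie farthest from 0, and the list medians lie between -0.02 and 0.17.

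Genes whose pattern over the 6 libraries was most like that of Ass1 were sought by the root mean square difference between centred log2(RPKM + 1) profiles. Since the search used the same libraries, the similarity is a description. The closest were Cyp2s1 (0.062), Sidt1 (0.081), App (0.083), Nr1d2 (0.084) and Peg13 (0.095). Sidt1 had the highest level of these, 66.9 ± 3.62 RPKM against 109 ± 8.76 RPKM (SD, n = 3 each; GFP-hi first). Nr1d2, a nuclear receptor of the circadian clock, had 4.71 ± 0.316 RPKM against 8.01 ± 0.316 RPKM (SD, n = 3 each). Peg13, an imprinted noncoding transcript, had 7.94 ± 0.684 RPKM against 13.4 ± 0.269 RPKM, close to Ass1 in level as well as in pattern. Cyp2s1 and App were near the lowest level tested, at means of 0.708 and 0.539 RPKM in GFP-hi and of 1.88 and 1.57 RPKM in GFP-lo. They passed the filter only through GFP-lo. Their GFP-lo means were 2.66 and 2.91 times their GFP-hi means, against 1.82 times for Ass1. Their closeness to Ass1 thus holds on the log2(RPKM + 1) scale, which understates the change of low genes. For Odc1 the closest were E4f1 (0.026), Rpl38 (0.028), Cdk13 (0.028), Mtg1 (0.031) and Sbno2 (0.032), with log2 fold changes from -0.13 to -0.06. These 5 genes, like Odc1, were highest in GFP-lo replicate 1 and lowest in GFP-hi replicate 1.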

How the data were processed

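RNA of 3 GFP-hi and 3 GFP-lo samples had been reverse transcribed with SMART-seq v4 and made into Nextera XT libraries, per the labels' protocols. Reads were aligned with STAR to mm10, per the submitters' processing notes. The authors deposited RPKM, per the file headers. The counter and annotation are not given in the sources used here. A RefSeq table gave the symbols of 14 genes turned into dates and of 1 without a symbol, by Entrez ID.

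Depth was recovered as the library size at which RPKM times length came closest to whole reads. Of 800 genes with 1 GENCODE M21 transcript, only low values above 0 on shorter transcripts were used, 259 to 275 in each library. Of the low values, 88.3% to 91.3% came out whole within 0.1 read, where chance gives 20%. Counting error is a lower limit, since reads include PCR copies.

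Genes whose RPKM averaged at least 1 were tested with limma 3.58.1 in R 4.3.3 on log2(RPKM + 1), with a mean-variance trend, no covariate, two-sided, and Benjamini-Hochberg adjustment. Fold changes on that scale understate the change of low genes. The fit was tested on simulated data with independent noise, with and without planted changes of 1 on the log2 scale. Smaller changes and variation shared between libraries were not simulated. Figures used matplotlib 3.10.9 under Python 3.11.15. Sequences came from RefSeq (GRCm38) and GENCODE M21.

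The 10 genes and the lists were chosen with earlier results of these data known. Named were the 10 genes, Myc, up to 4 genes of smallest p from each of the 7 lists (up to 6 had more passed), and the 5 genes most like Ass1 and Odc1, predicted genes left out. Slc7a1, Slc7a6 and the named markers fall outside this rule, and their values were known when they were picked. Alternatives changed the pseudocount, filter, scaling, variance model, weights and samples.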

Additional observations from a re-analysis of the deposited data

How the results depend on the processing

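Ass1 kept its direction and its call in all 17 alternatives, from -0.86 (pseudocount 0.1) to -0.75 on the log2 scale. Its value was -0.82 to -0.75 with 1 library left out. The number of genes of the list that were called, 1 as reported, was 3 with array quality weights, which added Sms and Oaz2 (0.16 each). Nothing is read from the count of 3, as those weights called 1282 of the 9351 genes tested. The number was 1 otherwise, also with any 1 library left out. Odc1 stayed negative, and Asl, Azin1, Oaz2, Srm, Sms and Sat1 positive, in all 17, but sizes moved: with 1 library left out Sat1 ran from 0.0245 to 0.1986 (0.0132 with array quality weights), Asl from 0.0815 to 0.2027, and Odc1 from -0.1503 to -0.0573 (-0.0454 with those weights). Amd1 was negative in 4 of 17 and Oaz1 in 2 of 17. Over all genes, 369 were called as reported, 202 with a mean RPKM of at least 5, 1282 with array quality weights, 101 in the 4 libraries low in Hspa1a and Hspa1b, and 133 (without GFP-lo replicate 2) to 315 (without GFP-hi replicate 2) with 1 library left out. Calls were 230 higher and 139 lower as reported, 199 and 183 when scaled by a trimmed mean of M values (30% of ratios and 5% of levels trimmed), and 52 and 49 in those 4 libraries. Of the neighbouring lists, 0 genes were called as reported, 9 with array quality weights, 1 each with no filter (Mxd3), without trend and with robust eBayes, and 0 to 1 with 1 library left out. Among genes not called, signs turned for Slc3a2 (-0.0046) and Myc (-0.0347) with array quality weights. With 1 library left out they ran from -0.0102 to 0.1299 for Myc, -0.0231 to 0.1068 for Dhps, -0.1387 to 0.0304 for Dohh and -0.0294 to 0.1358 for Atp13a2. The GFP-hi mean of the ratio of antizymes to their partners was 1.05 times that of GFP-lo, and 1.10 times for Oaz1 over Odc1 alone. The causes of these changes were not tested. No paired analysis was run, because the labels carry no replicate numbers. The numbers used here follow the order of deposition and only name the libraries. Some genes had like levels in same-numbered libraries. Nr4a1 was at 56.6, 90.9 and 37.0 RPKM in GFP-hi and at 63.1, 84.9 and 33.8 RPKM in GFP-lo replicates 1 to 3. Hspa1a was high in replicate 2 of both groups. Whether such libraries share a source was not tested. All fits were unpaired, so any shared variation stayed in the SDs and intervals. With 3 libraries in each group, an exact permutation test of a single gene cannot reach the threshold.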
